A study of Homo sapiens with 6 samples.

Results

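The genes described here are 9 members of the bradykinin and prostaglandin pathway, measured in T24 cells with and without overexpression of RNF112. They were taken by symbol from the deposited table of 23152 genes: the kinin receptors BDKRB1 and BDKRB2, the phospholipase PLA2G4A, the cyclooxygenases PTGS1 and PTGS2, the prostaglandin E2 synthase PTGES, the prostaglandin E2 receptors PTGER2 and PTGER4, and the breakdown enzyme HPGD. All 9 had a row. The set was chosen by pathway around the measured fold change of BDKRB2 between these same samples, which ranked 4 from the lowest of 14467 genes tested. The fold changes of the 9 genes are therefore given as a description with their errors and without a p-value.

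T24 cells are a long-established line from a human bladder carcinoma. Messenger RNA was sequenced from 3 samples that received the empty vector (vector) and 3 samples overexpressing RNF112, an E3 ubiquitin ligase of the RING finger family (oeRNF112). The labels' treatment text speaks of siRNA transfection, whereas the treatment field of every sample names vector or oeRNF112, and the study's methods describe plasmid transfection as well as stable lentiviral lines without saying which of them was sequenced. The time of harvest is not stated, and nothing says whether the 3 samples of a group came from separate cultures, so the tests measure the spread between these samples only.

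Bradykinin is a short peptide that is cut from kininogen by kallikreins. It acts on the B2 receptor (BDKRB2), which most cells that respond to it carry all the time, while its shortened form without the last arginine acts on the B1 receptor (BDKRB1), which is mostly made during inflammation. B2 signaling through Gq proteins raises calcium and activates cytosolic phospholipase A2 (PLA2G4A), which frees arachidonic acid from membranes. The cyclooxygenases turn arachidonic acid into prostaglandin H2, PTGES turns this into prostaglandin E2 (PGE2), and PGE2 leaves the cell, binds receptors such as EP2 (PTGER2) and EP4 (PTGER4) that raise cyclic AMP, and is inactivated by 15-hydroxyprostaglandin dehydrogenase (HPGD). In many epithelial tumors, bladder cancer included, PTGS2 and PGE2 have been linked to growth and inflammation.

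The libraries held between 40029547 and 41259569 counted reads. RNF112 itself was counted 27, 19 and 24 times in vector against 29753, 36963 and 31712 times in oeRNF112, a total to which the introduced construct may contribute. With edgeR's quasi-likelihood test on TMM-normalized counts, 1442 genes were higher and 1178 lower in oeRNF112 at a Benjamini-Hochberg adjusted p under 0.05, and with library totals in place of TMM factors 2020 were higher and 659 lower. The keratins KRT7, KRT8 and KRT18 were at 31265 to 64094 counts, while CDH1, KRT14, KRT20 and UPK3A had at most 2 counts in any sample. Of the 10 tested bladder and epithelial markers, 1 was higher (EPCAM) and 3 were lower (KRT7, KRT18 and FOXA1) in oeRNF112. The summed RPKM of that list was 3818 to 4441 in vector and 3233 to 3824 in oeRNF112. The list as drawn up also names CD44 and VIM, so it is not a list of epithelial genes only. VIM encodes vimentin, which the study counts among its proteins of epithelial-mesenchymal transition. Of the 10 leukocyte markers 5 were tested, with 1 higher (CD68, a lysosomal glycoprotein), 1 lower (LAPTM5), and CD3E at 0 counts in all but 1 sample. The summed RPKM of the list was 17.3 to 18.7 in vector and 33.2 to 41.3 in oeRNF112. CD68 was the only 1 of the 5 tested with a fitted value above 0, and their median log2 fold change was -0.58, so the higher sum does not describe the list as a whole. The endothelial, fibroblast and mast cell markers summed to between 0.423 and 0.666 RPKM in all 6 samples. The bladder and epithelial list and the leukocyte list were each called at 40%, against 18.1% of all genes tested. The part of other cells in the results below was not tested.

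Among the 9 members, the synthase PTGES had by far the highest level in T24 cells. The RPKM scale divides counts by 1 length per gene and by the library total. Comparisons between genes on it depend on the length used, which was 9700 bases for PTGS1 and 4510 bases for PTGS2. On this scale PTGES was at 11.5 ± 0.875 (SD, n = 3) in vector, a level above that of 78.3% of the genes in the table. The next 4 members lay close together in vector. PLA2G4A was at 0.929 ± 0.0298, PTGS2 at 0.915 ± 0.155, PTGER4 at 0.811 ± 0.120 and BDKRB2 at 0.732 ± 0.169 RPKM (SD, n = 3), and these neighbors did not differ beyond their spread. PTGS1 at 0.399 ± 0.0624 and PTGER2 at 0.386 ± 0.0920 RPKM formed a lower pair, again within each other's spread. BDKRB1 and HPGD closed the order at 0.0187 ± 0.0186 and 0.0169 ± 0.0149 RPKM. In oeRNF112 PTGES was again the highest at 9.58 ± 0.605 RPKM, followed by PLA2G4A at 1.05 ± 0.194, PTGER4 at 0.976 ± 0.162 and PTGS2 at 0.913 ± 0.147, which lay within each other's spread. PTGS1 at 0.702 ± 0.112 and PTGER2 at 0.478 ± 0.0965 RPKM came next, and BDKRB2, at 0.114 ± 0.0183, now stood below both. BDKRB1 and HPGD were again the lowest, at 0.0572 ± 0.0503 and 0.0172 ± 0.00989 RPKM.

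**Figure D1:**
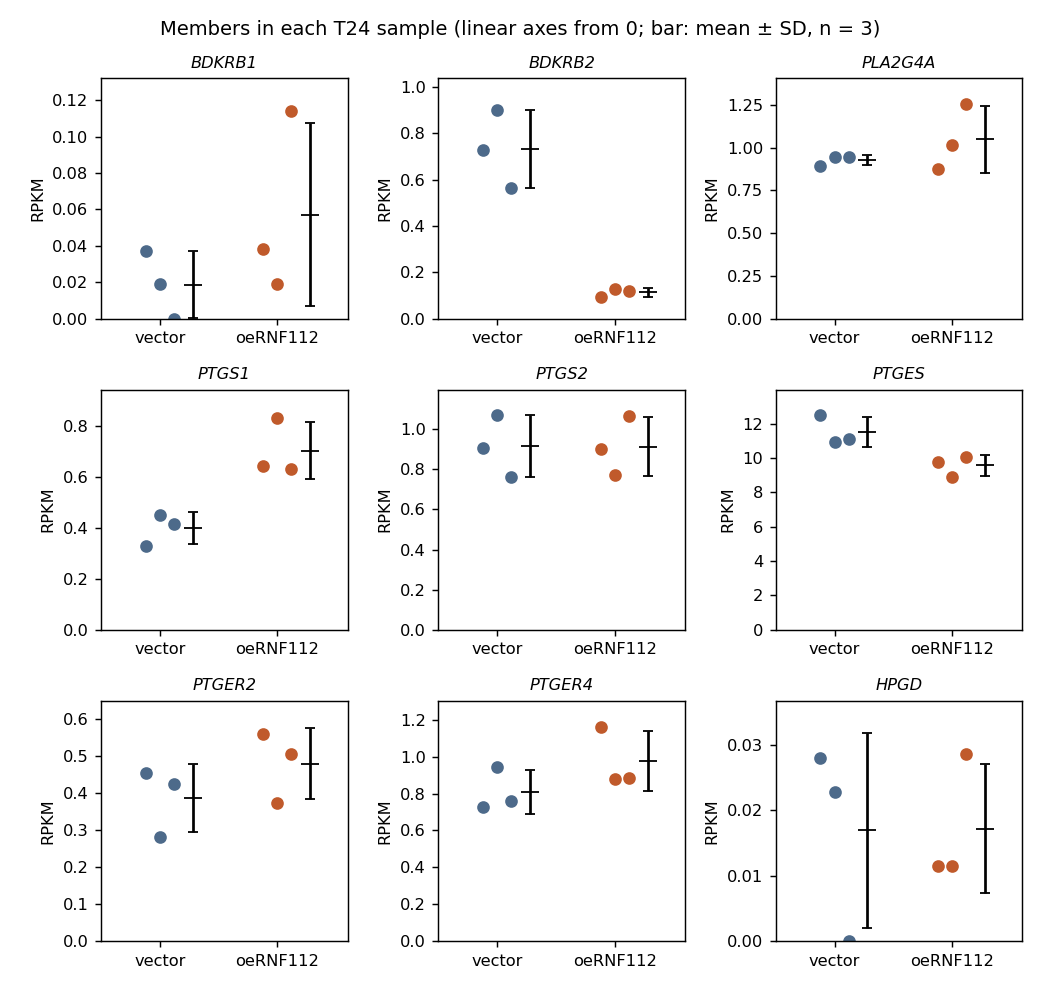
RPKM of the 9 members in each T24 sample, 1 panel per gene with a linear axis from 0. Points are samples (blue vector, orange oeRNF112) and the black mark is the mean ± SD of 3 samples. The BDKRB2 points of oeRNF112 lie between 0.0938 and 0.130 RPKM, all under the lowest vector sample at 0.565.

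Of the 9 members, 7 passed edgeR's filter on low counts and had a fitted value, and BDKRB1 and HPGD did not. The fit across all genes placed 3 of the 7 past the threshold, BDKRB2 and PTGES lower and PTGS1 higher in oeRNF112. Over all genes tested the corresponding share was 18.1%, with 9.97% higher and 8.14% lower. The same 3 members were those whose normalized values did not overlap between the groups, which held for 36.8% of all genes tested. Because the members were chosen with this contrast known, nothing is read from these counts.

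BDKRB2, the receptor for intact bradykinin, was counted 120, 146 and 91 times in vector and 15, 21 and 19 times in oeRNF112. Every oeRNF112 sample was far under the lowest vector sample. In absolute terms the 3 oeRNF112 samples were closer to each other than the vector samples were, but at a lower level. TMM-normalized CPM was 3.01 ± 0.646 in vector and 0.441 ± 0.0748 in oeRNF112 (SD, n = 3), so the spread relative to the mean was of similar size. The log2 fold change was -2.77 (standard error, SE, 0.268, 95% interval -3.36 to -2.17), which is a 6.81-fold lower level. Leaving out any one sample gave values from -2.91 to -2.61, and BDKRB2 was past the threshold in each of these 6 fits and in 8 of 8 other settings. These refits reuse the samples on which the gene was chosen. They describe how the value depends on processing and are no further evidence for the difference.

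BDKRB1 was close to the limit of detection in either group. It had 2, 1 and 0 counts in vector and 2, 1 and 6 counts in oeRNF112. Summed over each group this is 3 counts (95% Poisson interval 0.619 to 8.77) against 9 counts (4.12 to 17.1), and 6 of the 9 came from oeRNF112 replicate 3. The intervals overlap and cover counting error only, so a difference was not detectable at this depth. Per length, BDKRB1 was far below BDKRB2 in every vector sample, whereas in oeRNF112 replicate 3 the receptors were close, at 0.114 RPKM for BDKRB1 and 0.118 RPKM for BDKRB2.

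The receptor genes are neighbors. In GRCh38 BDKRB2 lies on chromosome 14 at 96204839 to 96244164 and BDKRB1 at 96256210 to 96264763, on the same strand, next to each other with no other RefSeq gene between them. The 300 bases around each start site (250 before, 50 after, RefSeq, GRCh38.p14) are shown because these adjacent receptor genes share a run of bases close to the start. The capitals mark the longest run that the windows have in common. The BDKRB1 window is chr14:96255960-96256259 and the BDKRB2 window is chr14:96204589-96204888, both on the plus strand.
BDKRB1: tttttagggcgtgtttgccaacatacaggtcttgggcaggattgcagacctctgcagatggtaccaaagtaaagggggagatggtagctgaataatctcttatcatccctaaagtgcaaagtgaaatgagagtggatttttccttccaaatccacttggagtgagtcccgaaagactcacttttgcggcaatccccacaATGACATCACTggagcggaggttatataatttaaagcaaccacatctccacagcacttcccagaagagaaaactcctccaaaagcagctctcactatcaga
BDKRB2: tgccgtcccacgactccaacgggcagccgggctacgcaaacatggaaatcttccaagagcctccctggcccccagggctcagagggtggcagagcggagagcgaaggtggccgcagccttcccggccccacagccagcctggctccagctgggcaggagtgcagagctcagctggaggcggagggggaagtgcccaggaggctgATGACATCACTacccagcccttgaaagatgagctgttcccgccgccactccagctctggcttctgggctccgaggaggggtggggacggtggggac
The run of 11 bases, ATGACATCACT, begins at position -51 in BDKRB1 and -46 in BDKRB2, counting from 0 at the first transcribed base. It was noticed after the sequences had been read, and it occurs on either strand in 22 of 35116 promoter windows (0.063%). Because the longest common run was looked for, some run was bound to be found. The share of windows that hold it does not measure how unusual the sharing is. Its surroundings differ, since the BDKRB1 window has 45.0% G and C bases and the BDKRB2 window 67.0%, against a median of 58.7% over all windows. The BDKRB2 window held none of the 9 motifs searched. BDKRB1 held 1, the STAT-type GAS element TTCNNNGAA, which 7.66% of all windows hold. That match lies inside the transcribed part, at 5 to 13. Sites that depart from the searched letters were left out. The shared run holds TGACATCA, which differs from the searched cyclic AMP response element TGACGTCA in 1 letter. The BDKRB1 window also holds tataat, which differs from the searched TATA box TATAAA in 1 letter. The search therefore does not show that either window lacks such sites. These matches describe letters in the windows and say nothing about the factors.

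The 5 tested genes within 300 kb on either side of BDKRB2 had log2 fold changes between -0.21 and 0.50, and their adjusted p-values from edgeR's test were all above 0.05. ATG2B, which takes part in autophagy, had 1358, 1801 and 1071 counts in vector and 1484, 1163 and 1881 in oeRNF112 (log2 fold change 0.02, SE 0.193, adjusted p = 0.958). GSKIP, which binds GSK3 and protein kinase A, was at 0.04 (adjusted p = 0.851) and PAPOLA, the poly(A) polymerase, at 0.08 (adjusted p = 0.593). AK7 was at 0.50 (adjusted p = 0.181) and C14orf132 at -0.21 (adjusted p = 0.707). GENCODE release 29 lists a protein-coding model, AL355102.2, that runs across both receptor genes. It had no row under that name and could not be analysed.

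**Figure D2:**
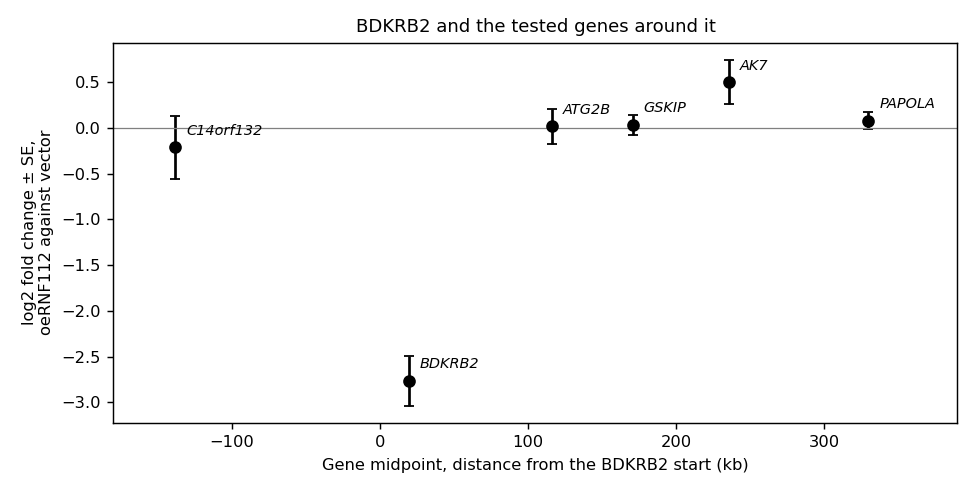
log2 fold change (oeRNF112 against vector, edgeR, ± 1 SE) of BDKRB2 and the 5 tested genes around it, against the distance of each gene's midpoint from the BDKRB2 start in kb. BDKRB2 sits at -2.77 and the others lie between -0.21 and 0.50.

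Genes that make and break kinins changed in both directions. Of the 18 listed genes 15 were measured and 11 tested, 3 rose and 2 fell by edgeR's quasi-likelihood test, and 6 did not pass, a share of 45.5% called against 18.1% of all genes. The list had a median log2 value of -0.06, and all genes tested one of 0.00. MME, or neprilysin, which cleaves bradykinin at the cell surface, rose from 5437, 5487 and 4396 counts to 8245, 8805 and 9146 counts. Its log2 fold change was 0.70 (SE 0.0969, adjusted p = 0.00159), and per length it was the most abundant of the called kinin genes after PRCP, at 20.7 RPKM in oeRNF112.

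CPM, the membrane carboxypeptidase that removes the last arginine of bradykinin and so produces the B1 ligand, rose from 102, 90 and 71 counts to 213, 211 and 201. The lowest oeRNF112 sample was well over the highest vector sample, and the log2 fold change was 1.17 (SE 0.171, adjusted p = 0.00201). SERPING1, the C1 inhibitor that restrains plasma kallikrein, went from 8, 3 and 10 counts to 41, 28 and 30 (log2 fold change 2.14, adjusted p = 0.00968). ACE, the angiotensin-converting enzyme that is also a main bradykinin-degrading enzyme, went the other way, from 31, 31 and 34 counts to 12, 19 and 12 (log2 fold change -1.23, SE 0.330, adjusted p = 0.0299). PRCP, a lysosomal carboxypeptidase, fell by a smaller step, with a log2 fold change of -0.27 (adjusted p = 0.0427) at 33.8 RPKM in vector.

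Among these 5 genes the calls of MME, CPM and SERPING1 held whichever sample was left out. The ACE call was lost without vector replicate 1, vector replicate 3, oeRNF112 replicate 1 or oeRNF112 replicate 3, at log2 fold changes of -1.24, -1.17, -1.12 and -1.11, and the PRCP call was lost without any sample except vector replicate 2, at -0.27 to -0.23. The other 6 tested genes included KLK1, tissue kallikrein, with 12 to 17 counts in vector and 12 to 19 in oeRNF112, and F12, the factor that starts the plasma contact system, with 155 to 197 and 209 to 305 counts (log2 fold change 0.47, adjusted p = 0.11). KLKB1, plasma kallikrein, had at most 4 counts. CPN1, the plasma carboxypeptidase N, had 1 count in a single library. KNG1, which encodes kininogen, CPB2 and XPNPEP2 had no row under these symbols and could not be analysed.

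**Figure D3:**
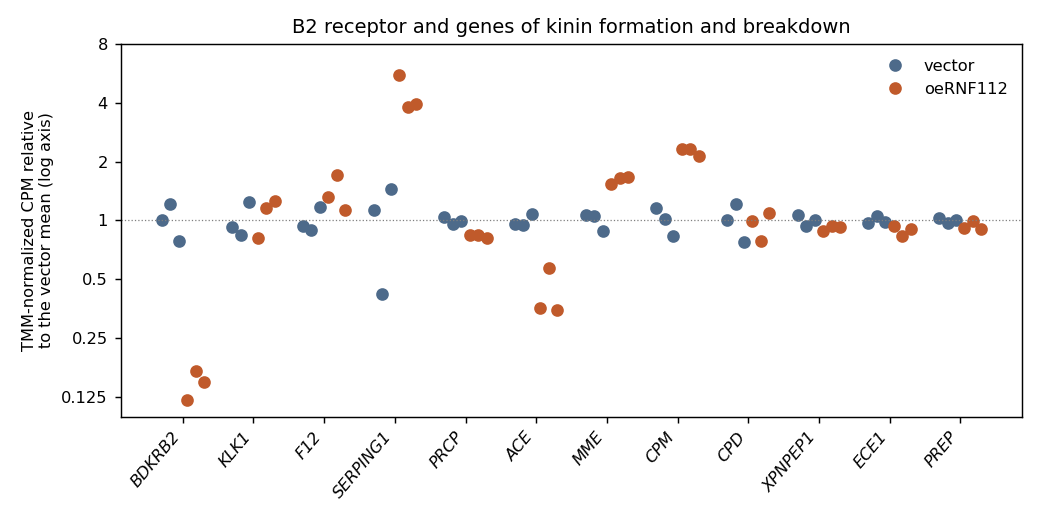
TMM-normalized CPM of BDKRB2 and the 11 tested genes of kinin formation and breakdown in each sample, divided by the gene's vector mean, on a log axis (blue vector, orange oeRNF112, 3 points each). In oeRNF112 BDKRB2 lies at 0.120 to 0.169 of the vector mean and ACE at 0.348 to 0.568, whereas CPM lies at 2.14 to 2.31 and MME at 1.54 to 1.67.

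PLA2G4A, which encodes the phospholipase that releases arachidonic acid, had 112, 116 and 116 counts in vector and 106, 125 and 154 in oeRNF112. The vector samples were nearly equal, and the oeRNF112 samples reached from below to above them. The log2 fold change was 0.08 (SE 0.181, 95% interval -0.32 to 0.48), and it turned to -0.06 without oeRNF112 replicate 3. None of the 14 tested genes of the list for arachidonate release and re-esterification passed edgeR's threshold, against 18.1% of all genes tested. Of the 14, 4 had an unadjusted p under 0.05 and DESeq2 called 2. ANXA1, annexin A1, an inhibitor of phospholipase A2, was among the abundant ones at 445 RPKM in vector and 470 RPKM in oeRNF112 (log2 fold change -0.01, adjusted p = 0.939). PLA2G4C, a calcium-independent relative of PLA2G4A, had 20, 37 and 25 counts in vector and 57, 61 and 48 in oeRNF112, with an adjusted p of 0.0525 from the same edgeR test. The secreted phospholipases PLA2G2A, PLA2G5 and PLA2G10 had at most 1 count in any sample. PLA2G12A, also a secreted form, had 736, 765 and 675 counts in vector and 730, 768 and 766 in oeRNF112 (log2 fold change -0.02, adjusted p = 0.896, edgeR).

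The cyclooxygenases are encoded by PTGS1 and PTGS2. PTGS1, the form that most tissues keep on at a steady level, had 132, 177 and 163 counts in vector and 250, 327 and 247 in oeRNF112. The groups did not overlap, and the log2 fold change was 0.72 (SE 0.175, 95% interval 0.33 to 1.12), a 1.65-fold higher level. Without vector replicate 1, which had the lowest PTGS1 count, the gene was no longer past the threshold, at a log2 fold change of 0.62. PTGS2, the inducible form, had 169, 196 and 139 counts in vector and 163, 141 and 194 in oeRNF112. The ranges cover each other almost entirely. Its log2 fold change was -0.10 (SE 0.176, 95% interval -0.49 to 0.30).

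Set against each other within a sample, the RPKM ratio of PTGS1 to PTGS2 was 0.363, 0.420 and 0.545 in vector and 0.713, 1.08 and 0.592 in oeRNF112. In oeRNF112 replicate 2 the steady form was thus as high as the inducible one on this scale. The ratios depend on the lengths used, 9700 bases for PTGS1 and 4510 bases for PTGS2, so they do not settle which transcript was more abundant. The difference between the responses of the genes was not tested. Either cyclooxygenase stayed well under PTGES, whose RPKM was 10.2 to 14.5 times that of PTGS2 in vector and 9.45 to 11.5 times in oeRNF112.

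The start regions of the cyclooxygenase genes are shown because the groups overlapped for one gene and not for the other. PTGS1 (chromosome 9, 122370533 to 122395703, plus strand) has the window chr9:122370283-122370582, and PTGS2 (chromosome 1, 186671791 to 186680423, minus strand) has chr1:186680374-186680673, printed on its own strand. Capitals mark the TATA box TATAAA, the core of the cyclic AMP response element TGACG, the C/EBP core TTGCNNAA and the GC box GGGCGG, searched on both strands. The table holds another window for a later PTGS1 start, which is not shown.
PTGS1: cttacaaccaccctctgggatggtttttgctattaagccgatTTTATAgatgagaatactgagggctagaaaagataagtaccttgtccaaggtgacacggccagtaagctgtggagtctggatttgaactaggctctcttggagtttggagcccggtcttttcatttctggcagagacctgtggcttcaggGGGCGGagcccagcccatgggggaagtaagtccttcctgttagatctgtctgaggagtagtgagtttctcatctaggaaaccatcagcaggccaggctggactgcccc
PTGS2: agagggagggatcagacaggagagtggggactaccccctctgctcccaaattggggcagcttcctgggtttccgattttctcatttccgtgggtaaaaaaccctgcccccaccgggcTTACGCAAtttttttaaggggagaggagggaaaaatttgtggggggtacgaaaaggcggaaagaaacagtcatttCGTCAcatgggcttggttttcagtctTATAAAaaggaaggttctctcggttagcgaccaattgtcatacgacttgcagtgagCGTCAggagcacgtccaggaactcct
PTGS2 held a TATA box at positions -32 to -27, a TGACG core on the other strand at -58 to -54, a further one inside the transcribed part at 24 to 28, and a C/EBP core at -133 to -126. Over all windows 11.5% held the TATA box, 24.6% the TGACG core and 10.5% the C/EBP core. PTGS1 held a TATA letter match only far from the start and on the other strand, at -208 to -203, and a GC box at -58 to -53, a motif present in 44.95% of windows. The full element TGACGTCA, which contains the TGACG core, the AP-1 letters TGANTCA and the MYC E-box CACGTG were in none of the 9 member windows, and 1.85%, 7.71% and 7.26% of all windows held them. Within the searched 300 bases, the NF-kB letters GGGRNWYYCC matched in PTGER4 alone among the members and in 5.91% of all windows. Sites that depart from these letters were not counted. The PTGS2 window, for example, holds gggactaccc, which differs from the pattern in 1 letter, so the search does not show that PTGS2 lacks such a site.

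PTGES, the microsomal synthase coupled to PTGS2, had 906, 776 and 785 counts in vector and 684, 632 and 712 in oeRNF112. The highest oeRNF112 sample was still under the lowest vector sample. The log2 fold change was -0.36 (SE 0.104, 95% interval -0.60 to -0.13), a 1.29-fold lower level. This value was past the threshold in 3 of 8 other settings and in 1 of 6 fits that left out a sample: it was lost without vector replicate 1 or 3 and without oeRNF112 replicate 1, 2 or 3, at log2 fold changes of -0.39 to -0.28. With library totals it was -0.27, also short of the threshold.

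Of the other prostanoid synthases, 7 of the 9 measured were tested, and 1 passed (14.3%, against 18.1% of all genes). AKR1C3, the aldo-keto reductase that makes prostaglandin F2alpha and also reduces steroids, fell from 424, 369 and 416 counts to 261, 272 and 247 (log2 fold change -0.71, SE 0.125, adjusted p = 0.00471, edgeR). The cytosolic synthase PTGES3, a co-chaperone of HSP90, and the membrane synthase PTGES2 were more abundant per length than PTGES, at 107 and 26.2 RPKM in vector against 105 and 26.2 RPKM in oeRNF112, with adjusted p-values of 0.407 and 0.610. The prostaglandin D synthases PTGDS and HPGDS had at most 1 count in any sample.

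Receptors for PGE2 were present at low levels in both groups. PTGER4, the EP4 receptor, had 124, 159 and 127 counts in vector and 193, 148 and 148 in oeRNF112. The groups overlapped through vector replicate 2, and the log2 fold change was 0.18 (SE 0.179, 95% interval -0.22 to 0.57). PTGER2, the EP2 receptor, had 46, 28 and 42 counts in vector and 55, 37 and 50 in oeRNF112. Its log2 fold change of 0.21 (SE 0.290, 95% interval -0.44 to 0.85) fell to 0.01 when vector replicate 2, the lowest sample, was left out. TTC33, with up to 1006 counts, lies on the opposite strand over part of PTGER4. This overlap is of whole gene spans and not of exons, and the strand setting of the counting is not given in the sources used here. Whether reads from TTC33 were counted for PTGER4 was not tested.

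Of the other prostanoid receptors, PTGER1, PTGER3, PTGDR2 and PTGFR never exceeded 2 counts, and PTGIR, the prostacyclin receptor, at most 7. The 2 tested genes of the list gave 0 calls with edgeR, 0 at an unadjusted p under 0.05 and 0 with DESeq2. TBXA2R, the thromboxane receptor, had 150 to 153 counts in vector and 157 to 216 in oeRNF112 (log2 fold change 0.20, adjusted p = 0.446, edgeR). The other tested gene, PTGFRN, encodes a binding partner of the prostaglandin F2alpha receptor, and had 533 to 1073 counts in vector and 796 to 1159 in oeRNF112.

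HPGD, which begins PGE2 breakdown, had 5, 4 and 0 counts in vector and 2, 2 and 5 in oeRNF112. Both groups summed to 9 counts (95% Poisson interval 4.12 to 17.1), and HPGD had the lowest RPKM of the 9 members. Downstream of it, the reductase PTGR1 was abundant at 35.6 RPKM in vector and 36.7 RPKM in oeRNF112 (adjusted p = 0.765). SLCO2A1, the prostaglandin uptake transporter, had at most 3 counts, and ABCC4, which exports PGE2, had 1475 to 2125 counts in vector and 1497 to 1677 in oeRNF112 (log2 fold change -0.26, adjusted p = 0.17). Among the 7 tested genes of transport and breakdown, SLCO4A1 alone passed (14.3%, against 18.1% of all genes). This organic anion transporter, known for carrying thyroid hormone and PGE2, rose from 4697, 5625 and 5308 counts to 12547, 12089 and 11826 (log2 fold change 1.14, SE 0.0927, adjusted p = 0.000126).

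**Figure D4:**
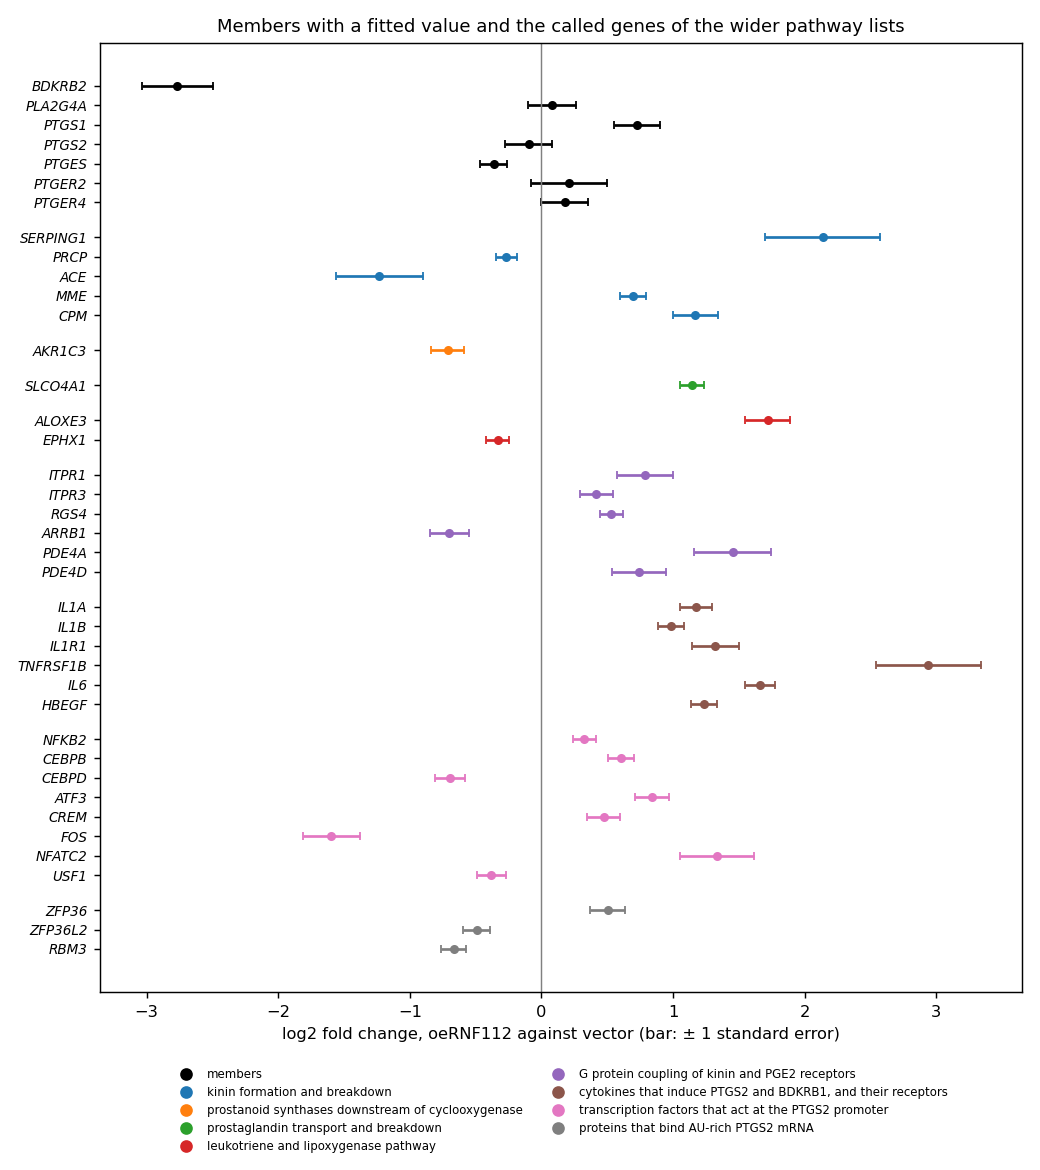
log2 fold change (oeRNF112 against vector, edgeR, ± 1 SE) of the 7 members with a fitted value (black) and of all 32 genes of the wider pathway lists with an adjusted p under 0.05 (colored by list). The 32 genes are 23% of the wider list genes tested, against 18.1% of all genes. BDKRB2 at -2.77 is the lowest value shown and TNFRSF1B, a gene of low counts, at 2.94 the highest.

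The genes that carry the receptor signals were called at close to the share of all genes tested. Of 33 genes for G protein coupling, 32 were tested, of which 5 rose, 1 fell and 26 did not pass edgeR's test, or 18.8% against 18.1% of all genes. GNAQ and GNA11, the Gq proteins through which B2 acts, had log2 fold changes of 0.00 and -0.02 (adjusted p = 0.984 and 0.862). GNAS, which couples EP2 and EP4 to adenylyl cyclase, had -0.27 (adjusted p = 0.0815). RGS4, which shortens Gq signals, rose from 1601, 1551 and 1429 counts to 2418, 2296 and 2269 (log2 fold change 0.53, adjusted p = 0.00344). ARRB1, the beta-arrestin 1 that takes receptors off the surface, fell from 439, 525 and 352 counts to 297, 269 and 289 (log2 fold change -0.70, adjusted p = 0.0111), a call that was lost without vector replicate 1 at -0.69.

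Cyclic AMP phosphodiesterases and calcium channels made up the other calls. PDE4A rose from 49, 37 and 47 counts to 137, 78 and 172 (log2 fold change 1.45, adjusted p = 0.00919 from edgeR's test). PDE4D rose by 0.74 on the log2 scale (adjusted p = 0.032), ITPR1 by 0.78 (adjusted p = 0.0311) and ITPR3 by 0.42 (adjusted p = 0.0447). These last 3 calls were lost without vector replicate 1 or 3 and without oeRNF112 replicate 1 or 3, where PDE4D had values of 0.54 to 0.83, ITPR1 of 0.60 to 0.78 and ITPR3 of 0.34 to 0.44.

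Several cytokines known to switch on PTGS2 and BDKRB1 were measured with their receptors. Of the 16 genes tested, 6 rose, 2 of them receptors (IL1R1 and TNFRSF1B), 10 did not pass and 0 fell by edgeR's test. That is 37.5% called, against 18.1% of all genes tested. Of the 16, 9 had an unadjusted p under 0.05 and DESeq2 called 6, and the median log2 value was 0.32. IL1B, a classical inducer of both genes, rose from 20018, 17528 and 19078 counts to 35715, 39693 and 42964 (log2 fold change 0.98, SE 0.0998, adjusted p = 0.000344). Its receptor IL1R1 rose from 127, 143 and 91 counts to 332, 273 and 347 (log2 fold change 1.32, adjusted p = 0.00138). IL1A (1.18), IL6 (1.66), HBEGF (1.24) and TNFRSF1B (2.94) rose as well, and no call of the 6 was lost when any sample was left out. TNFRSF1B was low, as it did not pass the alternative filter of at least 10 counts in every sample. With limma on log2(RPKM + 1) its value was 0.32. TNF itself, at 0.32 (adjusted p = 0.143), did not pass the test. The difference between the response of PTGS2 and that of the cytokine genes was not tested.

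**Figure D5:**
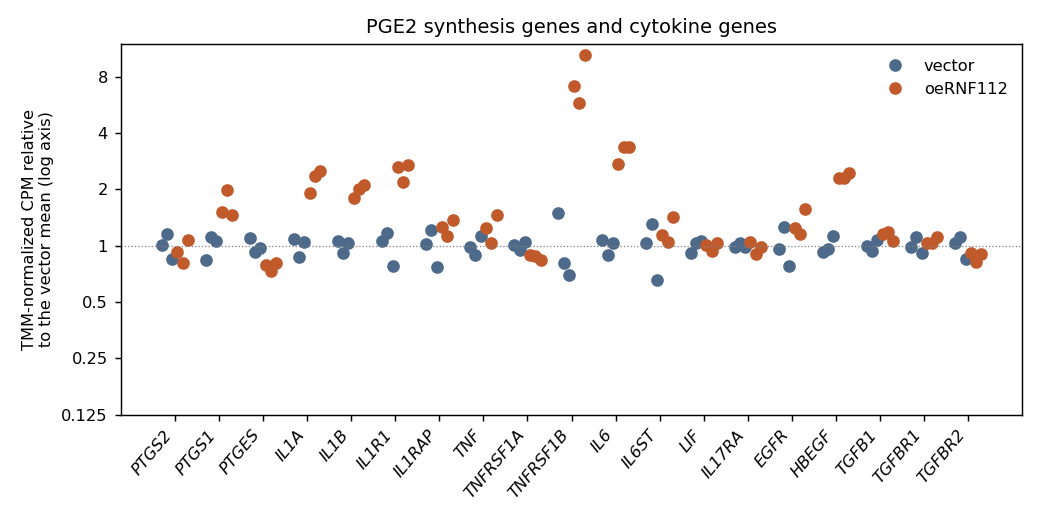
TMM-normalized CPM of PTGS2, PTGS1, PTGES and the 16 tested cytokine and receptor genes in each sample, divided by the gene's vector mean, on a log axis (blue vector, orange oeRNF112, 3 points each). PTGS2 in oeRNF112 lies at 0.806 to 1.08 of the vector mean, inside or close to the vector range of 0.846 to 1.15, while IL1B lies at 1.80 to 2.12.

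Transcription factors that act at the PTGS2 promoter changed in both directions. Of 27 tested, 5 rose and 3 fell by edgeR's test (29.6% called, against 18.1% of all genes), with a median log2 value of 0.08. CEBPB, which binds the C/EBP element, rose from 4429, 3925 and 4474 counts to 6529, 7410 and 6672 (log2 fold change 0.60, adjusted p = 0.00321), while its relative CEBPD fell from 648, 589 and 693 counts to 424, 432 and 405 (-0.70, adjusted p = 0.00347). FOS, a subunit of AP-1, fell from 1194, 1512 and 1610 counts to 434, 367 and 714 (-1.60, adjusted p = 0.00141), and ATF3, a stress-induced factor, rose by 0.84 on the log2 scale (adjusted p = 0.00246). CREM rose by 0.47 (adjusted p = 0.027) and NFATC2 by 1.33 (adjusted p = 0.0112). The NFATC2 call was lost without vector replicate 1 or oeRNF112 replicate 1 (1.33 and 1.21), and the CREM call without vector replicate 1, oeRNF112 replicate 2 or oeRNF112 replicate 3 (0.54, 0.39 and 0.47).

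The 3′ end of PTGS2 mRNA is rich in AU elements, which mark short-lived messages. In the GENCODE transcript with the longest coding part, the PTGS2 3′ untranslated region of 2562 bases held 22 copies of ATTTA, or 8.59 per kb, against a median of 1.72 per kb over 15561 genes, of which 1.47% held as many per kb. PLA2G4A, with 8.46 per kb, and PTGER4, with 6.63 per kb, were also well above that median, whereas BDKRB2, PTGS1 and PTGES held 1.13, 0.95 and 0.78 per kb. The PLA2G4A value rests on 4 copies in a short region of 473 bases, and 34.84% of genes held as many copies. PTGER4 held 9 copies in 1357 bases.

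Proteins that bind AU-rich PTGS2 mRNA were tested for 12 genes, of which 1 rose and 2 fell by edgeR's test. That is 25% called, against 18.1% of all genes tested. ZFP36, or tristetraprolin, which speeds decay of such messages, rose from 437, 478 and 549 counts to 687, 671 and 840 (log2 fold change 0.50, adjusted p = 0.0265), a call lost without vector replicate 1, oeRNF112 replicate 1 or oeRNF112 replicate 3 (0.44, 0.54 and 0.41). Its relative ZFP36L2 fell from 2727, 3068 and 3022 counts to 2409, 1956 and 2260 (-0.49, adjusted p = 0.00993). RBM3, a cold-inducible protein that favors PTGS2 mRNA, fell from 21374, 19176 and 20587 counts to 13450, 14562 and 12671 (-0.67, adjusted p = 0.00178). ELAVL1, or HuR, the best known stabilizer, was at -0.05 (adjusted p = 0.668).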

How the data were processed

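RNA-seq of 3 vector and 3 oeRNF112 samples of T24 cells was used, grouped by the labels. The authors deposited raw read counts per gene and, beside them, RPKM values, which equalled the count over 1 length and the library total for 23152 of 23152 genes (within 1%). The submitters' processing notes name Trimmomatic 0.36, featureCounts of Subread 1.5.1 and the GRCh38 genome, and the aligner, gene annotation and strand setting are not given in the sources used here. Counts were tested with edgeR 4.0.16 in R 4.3.3 (filterByExpr, TMM factors, quasi-likelihood test, Benjamini-Hochberg adjusted p under 0.05 over 14467 genes), and the scripts were tested on simulated data. Alternatives used DESeq2 1.42.0 or its size factors, library totals, no filter, at least 10 counts in every sample, limma 3.58.1 on log2(RPKM + 1) and log2(RPKM + 0.1), a replicate block, and each sample left out in turn.

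The members and gene lists were chosen with earlier results of these data known. Of each list the text names the called genes, at most 6 by smallest p, and genes with at most 3 counts in every sample. For BDKRB1, BDKRB2 and PTGS2 the rule adds the 3 genes most like them. Other genes were named for their known role or position after their values had been seen. Poisson intervals cover counting error only. Promoter windows come from RefSeq (GRCh38.p14), where all 9 members matched, and 3′ untranslated regions from GENCODE release 29.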

Additional observations from a re-analysis of the deposited data

How the results depend on the processing

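Among the 7 tested members and the 30 named pathway genes, no called value changed sign under the alternatives run, while the uncalled values of PTGS2 and PLA2G4A crossed 0 with single samples left out (-0.21 to 0.01 and -0.06 to 0.20). BDKRB2 stayed past the threshold in all of them, although its difference shrank to -0.63 on the log2(RPKM + 1) scale and -1.94 on the log2(RPKM + 0.1) scale, which understate changes of low genes, and PTGS1 and PTGES were 0.28 and -0.24 on the first of these scales. Library totals, no filter, and limma with either pseudocount left 1 member lower in place of 2, with PTGES lost. Genes lower over the whole table numbered 659 with library totals, 669 with limma on log2(RPKM + 1) and 682 with limma on log2(RPKM + 0.1), against 1178. With library totals the median over all genes lay at 0.096 on the log2 scale. Without 1 sample, genes higher ranged from 702 without vector replicate 1 up to 1841 with vector replicate 2 left out, genes lower from 359 to 1546, members higher from 0 to 1, members lower from 1 to 2, and wider pathway genes lower from 5 to 11. Leaving out vector replicate 1 gave the lowest of these counts, and for members lower the count was also 1 when any other sample except vector replicate 2 was left out. The cause was not tested.

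Same-numbered samples deviated apart (correlations -0.116, -0.363 and -0.296) and 0 of 6 correlated best with their own number, and the numbers were not taken as pairs. A replicate block gave 618 genes higher, 258 lower, 0 members higher, 1 member lower and 4 wider pathway genes lower against 10. Of 30 named pathway genes, 10 lost their call in at least 1 of the settings that kept all samples. At this depth, BDKRB1 and HPGD could not be compared.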

Other observations

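Arachidonic acid can also leave by lipoxygenases. Of 22 genes of the leukotriene and lipoxygenase list 11 were tested, 1 rose and 1 fell by edgeR's test (18.2% called, against 18.1% of all genes). ALOXE3, an epidermal lipoxygenase of the skin barrier, rose from 68, 60 and 72 counts to 205, 240 and 253 (log2 fold change 1.72, adjusted p = 0.000305). EPHX1, the microsomal epoxide hydrolase, fell from 2622, 2646 and 2788 counts to 2270, 2328 and 2163 (log2 fold change -0.33, adjusted p = 0.0278), a call lost without vector replicate 1 or 3 or oeRNF112 replicate 1 or 3, at -0.34 to -0.29. ALOX5, which starts leukotriene synthesis, was counted 0 times in every vector sample and 8, 4 and 4 times in oeRNF112, too few for the test.

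The genes whose profile over the 6 samples came nearest to BDKRB2 were IDO1, ANGPTL2 and CNTNAP3, with root mean square differences of log2 CPM of 0.444, 0.771 and 0.804 among 11565 genes. IDO1, which breaks down tryptophan, had 168, 182 and 187 counts in vector and 25, 65 and 34 in oeRNF112. As these genes were picked for likeness to BDKRB2 over the same samples, nothing is read from the difference between their groups. Nearest to PTGS2 were ZC3H13, TASOR and JARID2, at 0.0166, 0.0175 and 0.0182 among 11564 genes. For BDKRB1, which was not tested, no likeness was computed.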
